A study of Mus musculus with 15 samples.

Results

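The mir-99, mir-100 and mir-125 family was examined in left ventricular (LV) tissue of 15 mice by miRNA sequencing. Its members were taken by name as every row of the deposited counts that starts with mir-99a-, mir-99b-, mir-100-, mir-125a- or mir-125b-, with both arms of each precursor. The rule found 6 of the 1836 rows, namely the 5p and 3p arms of mir-99a, mir-100 and mir-125b-2. It found no row of mir-99b, mir-125a or mir-125b-1. Of the 6 members, 4 had reads and all 4 had enough reads to be tested, while mir-99a-5p and mir-125b-2-5p were listed at 0 in each of the 15 libraries. Those zeros are not read as a level, for the reasons given with the arms.

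The study asked how loss of arginine:glycine amidinotransferase (AGAT), an enzyme needed to make both homoarginine and creatine, alters cardiac miRNAs, and whether homoarginine (hArg) given back alters them again. The wt group held 5 mice (numbered 1 to 5 in the labels), the AGAT-/- group 5 mice that carry the deletion (6 to 10), and the AGAT-/-hArg group 5 mice of the same genotype that received hArg for 4 weeks from implanted osmotic mini pumps (11 to 15). All 3 groups had a C57BL/6J background and came as littermates from crosses of heterozygous parents, the wt and AGAT-/- mice being labelled as untreated controls, and neither age nor sex is given in the labels. Lane 8 carried all wt and AGAT-/- libraries and lane 2 those of AGAT-/-hArg mice, so that lane and supplementation cannot be told apart.

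Each miRNA gene is transcribed as a long RNA that is cut to a hairpin and then to a short duplex, of which usually one strand, the guide, is kept in Argonaute while the other, the passenger, is degraded. The guide finds target mRNAs through its seed, bases 2 to 8. The mir-125 miRNAs are the mammalian relatives of lin-4, the founding miRNA of the worm, and the mir-99 and mir-100 miRNAs form a family that is known to target the growth kinase mTOR and the IGF1 receptor. In mammals both families lie in clusters with a let-7 miRNA, and in both the 5p arm is generally regarded as the guide.

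The 6 mature sequences are printed since they show which arms share a seed, and which of those arms carried the reads. They are given 5′ to 3′ from RefSeq (GRCm38.p6), in which all 6 members were found, and capitals mark the seed.
mir-99a-5p: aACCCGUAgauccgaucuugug
mir-100-5p: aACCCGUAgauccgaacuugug
mir-125b-2-5p: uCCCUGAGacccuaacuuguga
mir-99a-3p: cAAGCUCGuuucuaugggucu
mir-100-3p: aCAAGCUUgugucuauagguau
mir-125b-2-3p: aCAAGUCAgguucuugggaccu
The 5p arms of mir-99a and mir-100 had the same seed and differed at 1 of 22 positions, A16U (the base of mir-100-5p first, counted from its 5′ end). Their seed ACCCGUA occurred in 3 of 1674 mature sequences, the third being mir-99b-5p. The seed of mir-125b-2-5p, CCCUGAG, occurred in 5 mature sequences, among them mir-125a-5p and mir-351-5p. This 5p sequence is given once in RefSeq for both mir-125b genes, so that a read of it fits either precursor. The 3p arms shared no seed with each other. CAAGUCA of mir-125b-2-3p and CAAGCUU of mir-100-3p each occurred in 1 mature sequence only, and AAGCUCG of mir-99a-3p in 2, the other being mir-99b-3p. The nearest 3p relatives of mir-125b-2-3p differed from it, since mir-125b-1-3p had the same base at 17 of 22 positions and mir-125a-3p at 18.

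The hairpins of mir-99a and mir-100 show how both arms of a precursor pair, here with both arms in capitals.
mir-99a: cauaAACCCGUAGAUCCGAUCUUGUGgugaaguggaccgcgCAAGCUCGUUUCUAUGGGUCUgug
mir-100: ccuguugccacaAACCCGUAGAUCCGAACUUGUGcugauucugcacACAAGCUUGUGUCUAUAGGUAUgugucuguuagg
Mir99a lies on the plus strand of chromosome 16 from 77598936 to 77599000 (GRCm38, GENCODE M21 annotation), within an intron of the non-coding host transcript Mir99ahg and opposite an intron of Gm11146 on the minus strand. Mir125b-2 lies within the same host transcript from 77646273 to 77646343, 47272 bases after Mir99a, with its 3p arm at chr16:77646318-77646339, and the end of its hairpin reaches an exon of C130023A14Rik. The let-7 gene of that cluster, Mirlet7c-1, follows Mir99a after 656 bases. Mir100 lies on the plus strand of chromosome 9 from 41531425 to 41531504, within introns of 3110039I08Rik and Gm49317 and within an exon of the antisense transcript Gm48742. Its neighbours are Mirlet7a-2 after 5211 bases and Mir125b-1 after 50421 bases.

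Total counts, the sum of the deposited rows, were between 365634 and 570492 reads per library. Rows listed at 0 add nothing to this total, and all shares of reads given here are shares of it. Between 4.93 and 8.21 CPM corresponded to 3 reads. CPM are counts scaled to a common library size after TMM normalization, which corrects for library composition. Mice of a group differed by more than sampling noise in all 30 pairs, with a chi-square of 2.53 to 16.8 per degree of freedom. The TMM factor was 0.8913 for wt mouse 4 and between 0.9502 and 1.078 for the other libraries. Of the miRNAs that define cardiac muscle, both arms of mir-499 and the 5p arms of mir-1a, mir-133a and mir-208a had reads in every library. In contrast, the 3p arms of mir-1a, mir-133a, mir-208a and mir-208b were listed at 0.

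In the rows as deposited, the reads of the family lay almost entirely on mir-125b-2-3p. This arm made up between 94.8% and 96.4% of all member reads and was the 7th most abundant row of the table by summed reads. Mir-99a-3p was the 63rd, mir-100-3p the 210th and mir-100-5p the 243rd of 1164 rows with reads. All 6 mature sequences are 21 or 22 bases long, and their read counts were compared without a correction. Whether the libraries recovered these different sequences alike was not tested, so the order is one of reads.

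In wt mice, mir-125b-2-3p had 5003, 5187, 5327, 5504 and 4800 reads. AGAT-/- mice had 6179, 7908, 5516, 6866 and 6652 reads of it, and AGAT-/-hArg mice 6738, 8690, 5878, 5738 and 7703 (each in the order of the mouse numbers). As a share of the deposited reads of the library this was 1.16% ± 0.0563 in wt and 1.45% ± 0.0366 in AGAT-/- mice. In AGAT-/-hArg mice it was 1.51% ± 0.0592 (mean ± SD, n = 5 in each of the groups). On this scale the 5 wt mice, between 1.10% and 1.24%, lay below the 10 others, which lay between 1.42% and 1.60%. After TMM normalization the level was 12010 ± 1190 CPM in wt, 14689 ± 669 CPM in AGAT-/- and 14444 ± 610 CPM in AGAT-/-hArg mice. On the CPM scale wt mouse 4, at 13952 CPM, lay above the lowest AGAT-/- mouse (13732 CPM) and the lowest AGAT-/-hArg mouse (13838 CPM), while the other wt mice lay between 10957 and 12153 CPM. Counting error accounted for a coefficient of variation between 1.20% and 1.39%, and the spread between mice in CPM was 9.91% in wt, 4.56% in AGAT-/- and 4.23% in AGAT-/-hArg mice.

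**Figure D1:**
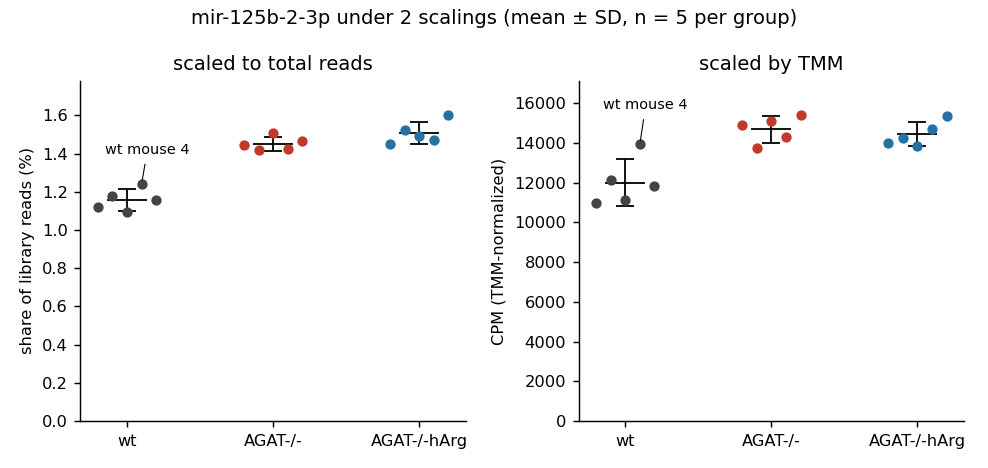
Level of mir-125b-2-3p in each mouse as a share of the deposited library reads (left, percent) and as TMM-normalized CPM (right). Points are mice and lines give mean ± SD (n = 5 per group). The wt mice lay below the other 10 in share of reads, and in CPM wt mouse 4, with 13952 CPM, lay among them.

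Mir-99a-3p, which comes from the same host transcript, was rarer, with 1 read for every 20.2 to 30.0 reads of mir-125b-2-3p. Wt mice had 248, 254, 251, 233 and 212 reads, AGAT-/- mice 206, 299, 214, 308 and 274, and AGAT-/-hArg mice 285, 383, 204, 256 and 267. Its level was 555 ± 35.1 CPM in wt, 576 ± 66.0 CPM in AGAT-/- and 578 ± 71.9 CPM in AGAT-/-hArg mice (mean ± SD, n = 5 per group). The 3 groups overlapped, the lowest value of all (480 CPM) and the highest (657 CPM) both being in AGAT-/-hArg mice. In wt mice the spread of 6.32% was close to the counting error of 6.46%, and it was 11.5% and 12.4% in the other groups.

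Both arms of mir-100 had reads, though few. Mir-100-3p had 16, 14, 13, 23 and 14 reads in wt mice, 16, 5, 11, 21 and 10 in AGAT-/- mice and 9, 20, 7, 14 and 12 in AGAT-/-hArg mice. This gave 37.6 ± 12.0, 28.9 ± 13.8 and 25.6 ± 8.55 CPM, with overlapping groups. Mir-100-5p had 11, 14, 3, 8 and 9 reads in wt mice, 8, 7, 10, 7 and 7 in AGAT-/- mice and 6, 13, 6, 14 and 5 in AGAT-/-hArg mice. Its level was 21.1 ± 9.58, 17.9 ± 5.88 and 18.8 ± 10.5 CPM, and the groups overlapped as well. With a mean of 8.53 reads per library, counting error alone gives a coefficient of variation of 34.2%, and the spread between mice was 45.4%, 32.8% and 55.8%.

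**Figure D2:**
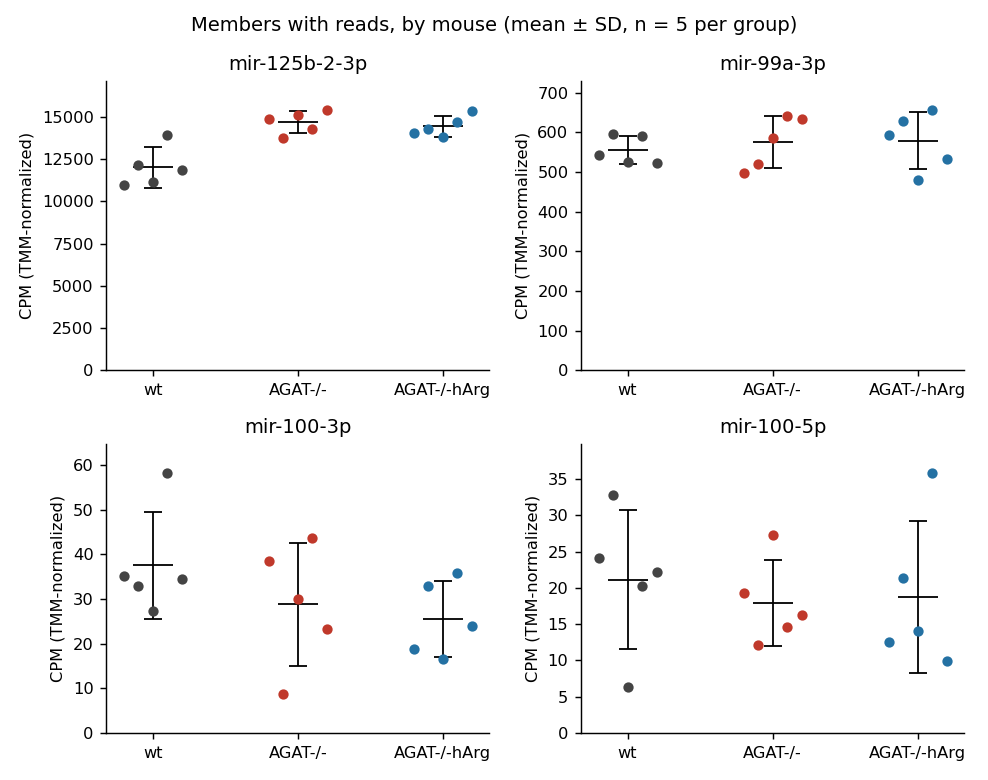
TMM-normalized CPM of the 4 members with reads in each mouse (points), with mean ± SD (n = 5 per group) and axes that start at 0. Mir-125b-2-3p lay between 10957 and 15413 CPM, mir-99a-3p between 480 and 657 CPM, and both mir-100 arms below 60 CPM.

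Mir-100 was the only one of the 3 precursors with reads on both arms. Over all libraries, 128 of its 333 reads (38.4%, exact 95% interval 33.2 to 43.9, for counting error only) lay on the 5p arm. Mir-100-3p had more reads than mir-100-5p in 12 of 15 libraries, as many in 2 and fewer in 1, and the ranges of the arms overlapped in each group. The 5p share was 34.9% ± 12.5 in wt, 41.1% ± 12.8 in AGAT-/- and 41.0% ± 7.83 in AGAT-/-hArg mice (n = 5 per group), which overlapped. By reads, the order of the members with reads was therefore mir-125b-2-3p, mir-99a-3p and then both arms of mir-100. The ranges of these arms overlapped between mice, though within most libraries mir-100-3p had more reads.

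The 5p arms of mir-99a and mir-125b-2 printed above, with the seeds ACCCGUA and CCCUGAG, had no read in any library, although the 3p arms of the same hairpins had 3894 and 93689 reads in total. This pattern was not particular to the family. Of 918 precursors in the deposited counts, 82 had a mean of at least 100 reads on 1 arm, and the other arm was listed at 0 in all 15 libraries for 37 of them (45.1%), for 22 the 5p and for 15 the 3p arm. Rows that define heart muscle, the 3p arms of mir-1a and mir-133a, were listed at 0 as well, in LV tissue. The study itself lists the 5p arm of mir-99a among the miRNAs that differed significantly between wt and AGAT-/- mice. On that list mir-99a-5p and mir-125b-2-3p are higher in AGAT-/- mice and mir-100-5p is lower. The zeros of both 5p arms therefore set no limit on their levels. Whether the reads of the mir-100 arms are complete could not be told from the counts alone. The row of mir-100-5p held 3 to 14 reads per library, and its difference was not called here. These may not be the reads that the study tested. The levels given here are those of the rows as named.

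To ask whether the family depends on AGAT, AGAT-/- mice were compared with wt mice by edgeR's quasi-likelihood test on the 562 miRNAs whose reads over the 10 libraries summed to more than 10. None of the 4 members tested passed a false discovery rate (FDR) of 0.05 after Benjamini-Hochberg adjustment, against 2.14% of all miRNAs tested (12 of 562). At an unadjusted p below 0.05 there was 1 member, mir-125b-2-3p, against 10.7% of all miRNAs (60 of 562). With DESeq2 and with limma-voom 1 member passed the FDR, again mir-125b-2-3p, against 2.49% and 2.67% of all miRNAs. In CPM no member had groups that did not overlap, against 3.38% of all miRNAs. In share of reads there was 1, mir-125b-2-3p, with the AGAT-/- mice higher, against 3.74% of all miRNAs.

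Mir-125b-2-3p was 1.21-fold as abundant in AGAT-/- as in wt mice (95% interval 1.09 to 1.34; log2 fold change 0.28, SE 0.072), with an edgeR FDR of 0.0523 just above the threshold and the 13th lowest p of 562. With DESeq2 the FDR was 0.00853. Without wt mouse 4 the log2 fold change was 0.34 and the edgeR FDR 0.00216. The FDR was also passed without wt mouse 5 (0.0334) or without AGAT-/- mouse 6 (0.0199), 9 (0.0399) or 10 (0.0229), and without each of the other mice it lay between 0.0872 and 0.181. With total counts in place of TMM the log2 fold change was 0.33 and the FDR 0.000825. The median log2 fold change of all miRNAs was -0.04 with TMM and 0.00424 with total counts. Relative to it, mir-125b-2-3p was 0.32 higher on the log2 scale under both scalings. A change of scaling shifts all miRNAs nearly alike, so this value could hardly have differed. With the animal number as a covariate, the log2 fold change was 0.24 and the FDR 0.362. These numbers, taken from the labels, were above those of all wt mice in 4 of 5 AGAT-/- mice.

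The other members had intervals on both sides of 0. The log2 fold change of mir-99a-3p was 0.04 (95% interval -0.18 to 0.25, edgeR FDR 0.969), so that a change of more than 1.19-fold in either direction lay outside the interval. For mir-100-3p it was -0.41 (-1.11 to 0.29, FDR 0.748) and for mir-100-5p -0.28 (-1.04 to 0.49, FDR 0.894). With the few reads in the rows of both mir-100 arms, a difference of the size measured for mir-125b-2-3p would not have been detectable. The median of the 4 members was -0.12, beside -0.04 for all miRNAs.

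**Figure D3:**
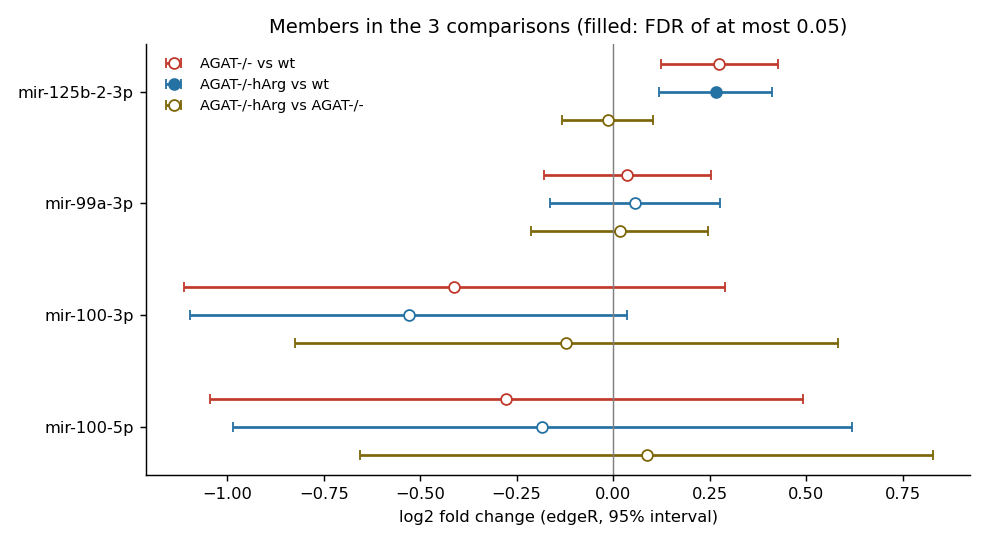
Log2 fold changes of the 4 members with reads in the 3 comparisons (points, edgeR), with 95% intervals as lines, and filled points where the FDR was at most 0.05. Only mir-125b-2-3p in AGAT-/-hArg against wt mice is filled, at 0.27, and the intervals of the mir-100 arms are the widest.

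Whether hArg alters the family in mice without AGAT was examined by comparing AGAT-/-hArg with AGAT-/- mice, a comparison that also holds the change of lane. By edgeR, none of the 4 members passed the FDR, against 0.690% of all miRNAs tested (4 of 580), none had an unadjusted p below 0.05, against 7.41%, and none passed with DESeq2 or limma-voom, against 0.862% with each tool. No member had groups that did not overlap, against 2.41% of all miRNAs in CPM and 2.24% in share of reads. Mir-125b-2-3p was 0.990-fold as abundant (95% interval 0.912 to 1.07, FDR 0.972). With total counts its log2 fold change was 0.05 instead of -0.01, while the median of all miRNAs moved from 0.0142 to 0.0823. The log2 fold changes of mir-99a-3p (0.02, -0.21 to 0.25), mir-100-3p (-0.12, -0.83 to 0.58) and mir-100-5p (0.09, -0.65 to 0.83) had an edgeR FDR of 0.972 each.

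AGAT-/-hArg mice were also compared with wt mice, again across lanes. One member, mir-125b-2-3p, was higher at the FDR (1 of 4, against 2.99% of all miRNAs tested, 17 of 569), at a 1.20-fold level (95% interval 1.09 to 1.33; log2 fold change 0.27, SE 0.0705, edgeR FDR 0.0422). All 5 AGAT-/-hArg mice lay above the wt mean of 12010 CPM. In CPM no member had groups that did not overlap, against 3.87% of all miRNAs, and in share of reads mir-125b-2-3p had, against 5.27%. Mir-125b-2-3p passed the FDR in 8 of 10 other settings, among them DESeq2 (0.00618), limma-voom (0.0169) and total counts (0.00023). The call was lost when the 3 most abundant miRNAs were left out before normalization (FDR 0.0703), when the animal number was a covariate (0.20, FDR 0.447) and when any 1 mouse was left out (FDR between 0.0797 and 0.135) except wt mouse 4 (log2 fold change 0.34, FDR 0.00309) or AGAT-/-hArg mouse 13 (FDR 0.0467). With total counts the median of all miRNAs moved from 0.015 to 0.123 on the log2 scale, and the miRNAs past the FDR from 9 higher and 8 lower to 16 higher and 8 lower. Relative to that median, mir-125b-2-3p was 0.25 higher with TMM and 0.26 higher with total counts, values that a change of scaling could hardly set apart.

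Of the other members, mir-99a-3p had a log2 fold change of 0.06 between AGAT-/-hArg and wt mice (-0.16 to 0.28, edgeR FDR 0.918). The value of mir-100-3p was -0.53 (-1.10 to 0.04, FDR 0.444) and that of mir-100-5p -0.18 (-0.99 to 0.62, FDR 0.919). The median of the 4 members was -0.06, beside 0.015 for all miRNAs. The comparisons of AGAT-/- and of AGAT-/-hArg mice with wt mice share the 5 wt libraries, wt mouse 4 among them, so the values of mir-125b-2-3p in both, 0.28 and 0.27, do not come from separate controls.

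**Figure D4:**
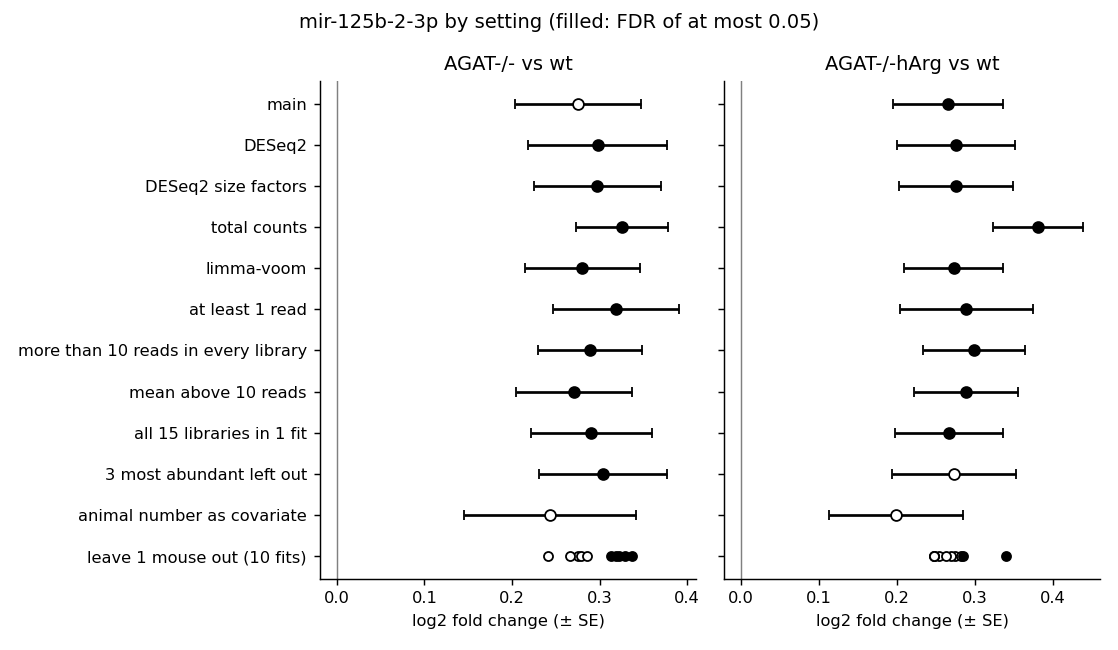
Log2 fold change of mir-125b-2-3p (± SE) against wt mice under each setting of the analysis, for AGAT-/- (left) and AGAT-/-hArg mice (right), with filled points where the FDR was at most 0.05 and a last line for the 10 fits with 1 mouse left out. All values lay above 0, between 0.24 and 0.34 for AGAT-/- and between 0.20 and 0.38 for AGAT-/-hArg mice, while the side of the FDR differed.

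Ratios of reads within a library do not depend on the scaling. For each read of mir-99a-3p, its neighbour in the host transcript, there were 21.6 ± 1.48 reads of mir-125b-2-3p in wt, 25.8 ± 2.86 in AGAT-/- and 25.3 ± 3.27 in AGAT-/-hArg mice (mean ± SD, n = 5 per group). The wt range of 20.2 to 23.6 overlapped with those of AGAT-/- (22.3 to 30.0) and AGAT-/-hArg mice (22.4 to 28.9). Mir-351-5p, which has the mir-125 seed and is the 9th most abundant row, gave a second denominator of similar depth.
mir-351-5p: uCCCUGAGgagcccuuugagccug
It had the same base as mir-125b-2-5p at 10 of 22 positions, with a longest shared run of 8. For each read of mir-351-5p there were 1.02 ± 0.122 reads of mir-125b-2-3p in wt, 1.35 ± 0.152 in AGAT-/- and 1.42 ± 0.0680 in AGAT-/-hArg mice. Here the wt mice, between 0.864 and 1.13, did not overlap with the AGAT-/- mice (1.21 to 1.54) or the AGAT-/-hArg mice (1.36 to 1.53). This ratio also holds any change of mir-351-5p. Its own log2 fold changes against wt mice were -0.12 in AGAT-/- mice (edgeR FDR 0.691) and -0.22 in AGAT-/-hArg mice (FDR 0.181). No test was run on these ratios, and how often ratios to other rows do not overlap was not counted.

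**Figure D5:**
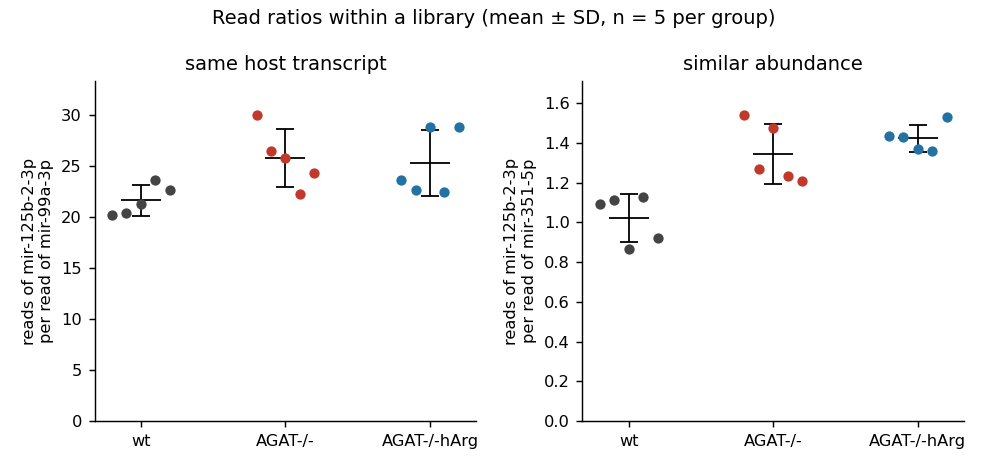
Reads of mir-125b-2-3p for each read of mir-99a-3p (left) and of mir-351-5p (right) in each mouse, with mean ± SD (n = 5 per group) and axes that start at 0. The groups overlap on the left, and on the right the wt mice, at most 1.13, lie below the others, at least 1.21.

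The relatives of the family were examined as fixed lists. Of the mir-10 and mir-351 precursors, relatives by sequence, 3 of 6 arms were tested (mir-351-5p, mir-351-3p and mir-10b-3p), since both arms of mir-10a and mir-10b-5p were listed at 0. By edgeR none of the 3 passed the FDR in any comparison, against 2.14%, 0.690% and 2.99% of all miRNAs in AGAT-/- against wt, AGAT-/-hArg against AGAT-/- and AGAT-/-hArg against wt mice. An unadjusted p below 0.05 was found for none, none and 1 of them, against 10.7%, 7.41% and 12.5% of all miRNAs. None passed with DESeq2 or limma-voom, which called 3.87% and 3.16% of all miRNAs in AGAT-/-hArg against wt mice, and the medians of the 3 were -0.12, -0.11 and -0.22 on the log2 scale, in this order of comparisons. Mir-351-5p was at 11816 ± 1273 CPM in wt, 11013 ± 1206 CPM in AGAT-/- and 10144 ± 394 CPM in AGAT-/-hArg mice, with log2 fold changes of -0.12 (edgeR FDR 0.691), -0.11 (FDR 0.830) and -0.22 (FDR 0.181). The let-7 neighbour in the mir-100 cluster, let-7a-2, had its 5p arm at 0, and its 3p arm had 15, 10 and 12 reads in total in wt, AGAT-/- and AGAT-/-hArg mice. By edgeR, DESeq2 and limma-voom it did not pass the FDR in any comparison or reach an unadjusted p below 0.05. The list found no row of let-7c-1 or let-7e.

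Of the pairs of neighbours in a cluster, 1 had a mean of at least 10 reads on both rows, mir-125b-2-3p with mir-99a-3p. After subtraction of the group means, their log2 CPM gave a Pearson's r of 0.33 (permutation p = 0.158) and a Spearman's rho of 0.34 (permutation p = 0.196) over 15 mice. This was the only pair tested, so that adjustment leaves these p values as they are. Without the 2 mice farthest from the median r was 0.31, within lane 8 it was 0.43 (permutation p = 0.146, 10 mice), and lane 2 held too few mice. With total counts r was -0.07 (permutation p = 0.814).

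As a description, the miRNAs with at least 50 reads per library on average whose log2 CPM resembled mir-125b-2-3p most over the 15 libraries were mir-210-5p (Pearson's r 0.80), mir-499-5p (0.79) and mir-24-2-5p (0.77). Within groups, after subtraction of the group means, r was 0.28, 0.25 and 0.54. Its neighbour mir-99a-3p was the 28th of 124 with an r of 0.31. For mir-100-5p they were mir-434-5p (0.60), mir-425-3p (0.57) and mir-486a-5p (0.52), values that rest on the few reads of mir-100-5p. Libraries share depth and TMM factor across miRNAs, and no p is given for these values.

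In tissue of mixed cells, fewer cells of a type and less RNA per cell cannot be told apart, and markers of the cell types of the LV are given beside mir-125b-2-3p. The 14 rows of cardiac muscle, 6 of them at 0, summed to between 0.177% and 0.204% of reads in wt, 0.187% and 0.258% in AGAT-/- and 0.215% and 0.249% in AGAT-/-hArg mice. Without mir-499-5p, the other 13 rows summed to overlapping ranges, between 0.109% and 0.131%, 0.101% and 0.145%, and 0.117% and 0.142%. By edgeR, 0 of 7 cardiac rows tested passed the FDR in AGAT-/- against wt mice, beside 2.14% of all miRNAs. At an unadjusted p below 0.05 there were 2, beside 10.7% of all miRNAs. The log2 fold changes were above 0 for 2 rows and below for 5 (median -0.04). Mir-499-5p was at 0.36 (FDR 0.0647) and the other 6 between -0.05 and 0.74. In AGAT-/-hArg against wt mice 1 of 8 passed, beside 2.99% of all miRNAs. It was mir-499-5p, higher by 0.43 (FDR 0.0129), and the other 7 lay between -0.22 and 0.76. The 4 smooth muscle rows, 1 at 0 (mir-143-3p), made up between 0.930% and 1.16%, 0.998% and 1.35%, and 1.05% and 1.80% of reads, mostly as mir-145a-3p, whose edgeR FDR was 0.782 in AGAT-/- against wt and 0.217 in AGAT-/-hArg against wt mice. Red blood cell rows (3 of 6 at 0, mir-451a among them) made up between 0.556% and 0.641%, 0.574% and 0.708%, and 0.571% and 0.713%. Mir-126a of endothelium made up at most 0.00269%, mir-142a, mir-223 and mir-150 of leukocytes at most 0.0120%, mir-122 of liver at most 0.000526%, and the 2 fibroblast rows, both of mir-199a, were at 0. The zeros among these rows, such as mir-142a-5p, mir-223-3p, mir-150-5p and mir-199a, are not read as a level either. These shares thus do not measure how many cells of a type the tissue held. The part of these cell types in the level of mir-125b-2-3p was not tested.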

How the data were processed

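LV tissue of 15 mice was used for small RNA sequencing (TruSeq libraries, Illumina HiSeq), 1 library per mouse. The authors used the CLC Genomics Workbench to map reads to the mouse entries of miRBase, and deposited the counts of reads per mature miRNA, without normalization. The release, the mismatches allowed and the handling of reads that fit several miRNAs are not given in the sources used here. The submitters' notes name GRCm38. A read that fits several precursors could therefore be counted in more than 1 way. Groups were taken from the labels, and mouse numbers are shared by no groups.

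Groups were compared in pairs with edgeR 4.0.16 (R 4.3.3; TMM, glmQLFit, glmQLFTest) on the 10 libraries concerned, for miRNAs with more than 10 reads in their sum, with Benjamini-Hochberg adjustment over all miRNAs tested and an FDR of at most 0.05. The study's own minimum of reads could be meant per library or summed. CPM per mouse used TMM over 15 libraries, and log2 CPM a prior count of 1. Correlations were tested with 100000 permutations (two-sided, scipy 1.17.1, Python 3.11.15). P values of the group tests, and the intervals of fold changes, set a difference between groups against the spread between these mice. The exact interval of the mir-100 arm share covers counting error only.

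Alternatives were DESeq2 1.42.0 (the study's tool), its size factors or total counts in edgeR, limma-voom (limma 3.58.1), other filters, all 15 libraries in 1 fit, the 3 most abundant miRNAs left out, the animal number as covariate, and each mouse left out in turn. Named miRNAs are all rows of the rule, their let-7 neighbours, the mir-10 and mir-351 relatives, the 3 miRNAs most alike to mir-125b-2-3p and to mir-100-5p, and markers of cell types, whose lists for neurons and skeletal muscle found no row. The members and lists were chosen with earlier results of these data known. The fits were also run on simulated counts for AGAT-/- against wt mice. The changes put into them were larger than the difference measured for mir-125b-2-3p. That run therefore does not show how well a difference of this size is found. Sequences came from RefSeq (GRCm38.p6) and positions from GENCODE M21.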

Additional observations from a re-analysis of the deposited data

Results flagged for a closer look

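Among the 12 sets of 5 mice (4 members with reads in 3 groups), 1 held a mouse that stood far from the others. In wt mice, mir-100-3p was at 58.3 CPM in mouse 4 (23 reads) and at most 35.0 CPM in the other mice (16 reads), a gap of 0.749 of the whole range, above Dixon's critical value of 0.71 for 5 samples. As a share of library reads the same mouse was at 0.00520% and the next at 0.00359%, a gap of 0.636 of the range, below the critical value. Chance gives about 1 such mouse in 20 sets. The same mouse had the lowest TMM factor of the series, 0.8913, which raises all its CPM values.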

How the results depend on the processing

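Of 415 values recomputed under other settings, 346 kept their direction and side of the threshold or, for counts, stayed within 1.5 times. In AGAT-/- against wt mice the number of members past the FDR was 0 in the analysis reported and 1, mir-125b-2-3p, with DESeq2, DESeq2's size factors, total counts, limma-voom, each of the 3 other filters, all 15 libraries in 1 fit and the 3 most abundant miRNAs left out; it was between 0 and 1 with each mouse left out. In AGAT-/-hArg against wt mice it was 1, and 0 with the 3 most abundant miRNAs left out or the animal number as a covariate; with 1 mouse left out it was 0 or 1. All log2 fold changes of mir-125b-2-3p against wt mice stayed above 0; the causes of the lost and gained calls were not tested. Values that changed sign had an FDR above 0.7: mir-99a-3p in AGAT-/- against wt mice (-0.13 with the animal number), mir-125b-2-3p (0.0546 with total counts) and mir-100-3p (0.0322 with limma-voom) in AGAT-/-hArg against AGAT-/- mice, and, with each mouse left out, mir-100-3p (-0.39 to 0.10), mir-99a-3p (-0.0387 to 0.0562) and mir-100-5p (-0.23 to 0.27) in that comparison and mir-100-5p in AGAT-/-hArg against wt mice (-0.491 to 0.0362). The correlation of mir-125b-2-3p with mir-99a-3p turned to -0.0662 with total counts. All miRNAs past the FDR numbered 8 with at least 1 read and 2 with more than 10 reads in every library, against 4, for AGAT-/-hArg against AGAT-/- mice, and 28 with at least 1 read, 10 with the animal number and 10 to 20 with each mouse left out, against 17, for AGAT-/-hArg against wt mice. For AGAT-/- against wt mice they numbered between 8 and 18, against 12. With more than 10 reads in every library neither arm of mir-100 could be tested, nor mir-100-5p with a mean above 10. Mouse numbers are shared by no groups, so no paired analysis was possible because the groups compared share fewer than 2 numbers. The few reads in the deposited rows limit what can be said of both arms of mir-100.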
